A study of Drosophila melanogaster with 15 samples.

Results

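The regions described here were promoter sites that CREB and its coactivator CRTC shared in mushroom body nuclei of Drosophila melanogaster 1 day after spaced training. A CRTC site was taken as shared when a CREB site lay within 200 bp of it on the same chromosome, and as a promoter site when it lay within 500 bp of the nearest annotated transcription start site (TSS). By this rule 1325 of the 3002 CRTC sites (44.1%) were members, and they were assigned to 1014 genes. The CRTC list used here is shorter than the number of CRTC sites the study describes, so a site or gene without CRTC is one without a site in this list. The members made up 55.4% of the 2390 shared sites and 81.1% of the 1633 CRTC sites at promoters. Of the 2722 CREB promoter sites, 1407 (51.7%) had a CRTC site within 200 bp. The positions of the sites chose the members, so site numbers, positions and enrichment factors are given as a description without a test.

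Nuclei came from CS10 flies, written w(CS10) in the study's methods and of both sexes, in which a FLAG-tagged KASH domain marked the nuclear envelope under the MBp-LexA driver, and each preparation pooled many flies. Kenyon cells, the intrinsic neurons of the mushroom body, were not all tagged equally, since the study reports weaker labelling of the α'/β' lobe by this driver. CREB and CRTC were measured by ChIP-seq in 1 library each, both made 1 day after spaced training, a protocol that pairs odor and electric shock repeatedly with rest intervals, using custom antibodies raised against fly CREB and CRTC. For each of H3K9Ac and H4K16Ac there were 3 naive libraries and 3 libraries made 1 day after the same training, and a single naive input library completed the 15 samples. No CREB or CRTC library from naive flies was analysed here, so nothing is said about a change of binding with training. All groups shared the strain. The site lists hold no read counts per library, the depth is unknown, and no CREB or CRTC value has a replicate check.

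CREB is a basic leucine zipper transcription factor that binds cAMP response elements, and CRTC is a coactivator that moves into the nucleus when it is dephosphorylated and docks on the leucine zipper of CREB. In the fly, CREB is required in the mushroom body, the brain structure that stores olfactory memory, for long-term memory of an odor paired with shock. Acetylation of lysine 9 of histone H3 is typical of active promoters, whereas acetylation of lysine 16 of histone H4 loosens chromatin packing and, on the male X chromosome of the fly, is part of dosage compensation.

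Beadex (Bx), which encodes a LIM-only transcriptional regulator, had a member on chromosome X at 18428504 to 18428596 of dm3, 99 bp upstream of its TSS. The primers that the study gives for the CRTC peak of this gene in ChIP-qPCR are shown, written 5′ to 3′ with no part capitalised. Whether they amplify the interval of this member was not checked, since no genome sequence was used here.
Bx forward: gccggatagtttcctcttccttc
Bx reverse: ctggctggtgggtgatataatg
At the Bx member the CRTC enrichment factor, the authors' ratio of ChIP to background reads, was 5.74 and that of CREB was 7.91. An H3K9Ac region listed as increased lay within 200 bp, with a listed fold of 1.2 ± 0.17 (listed SD), and there was no H4K16Ac peak within that distance.

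Members concentrated just upstream of the TSS. Of the 1325 members, 746 (56.3%) lay upstream, 363 (27.4%) lay downstream and 216 (16.3%) had the TSS within the site. The upstream members were a median of 87.0 bp from the TSS, and 543 of them (72.8%) were within 200 bp. The downstream members were spread more widely, at a median of 216 bp. In all, 744 members (56.2%) were within 100 bp of the TSS, 930 (70.2%) were within 200 bp, and 121 (9.13%) lay more than 400 bp away. The share upstream was 48.2% for the 1315 CREB promoter sites without CRTC and 42.9% for the 308 CRTC promoter sites without CREB, so the upstream side held a larger share of the members than of either class bound by 1 factor alone.

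**Figure D1:**
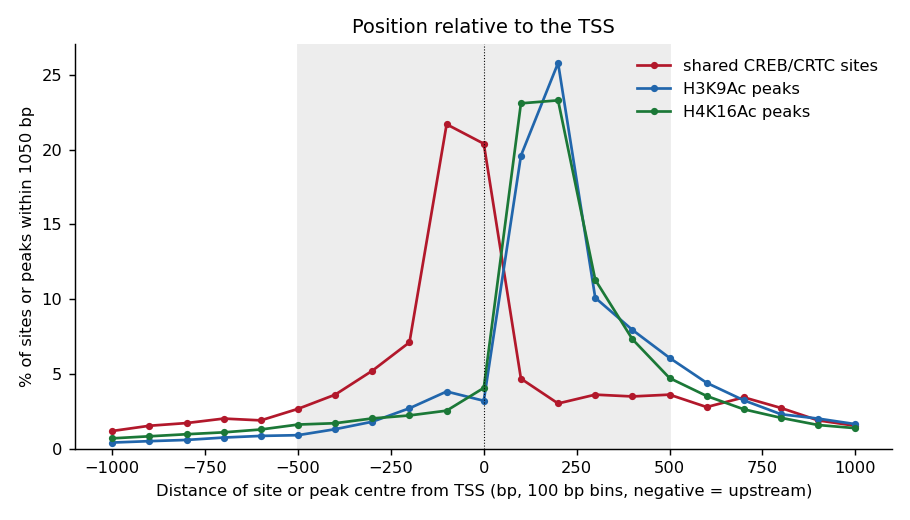
Position of site and peak centres relative to the nearest TSS, in 100 bp bins (x axis, bp, negative values upstream; y axis, percent of the sites or peaks of that set in the plotted range), with the 500 bp on either side that define a promoter site shaded. Shared CREB/CRTC sites had 21.7% in the bin centred 100 bp upstream and 4.69% in the bin centred 100 bp downstream, whereas H3K9Ac peaks had 25.8% in the bin centred 200 bp downstream. Peaks of each mark come from 3 stacked lists, so a peak can count more than once.

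Acetylation peaks took the other side of the TSS. Of the 14597 H3K9Ac peaks within 500 bp of a TSS 85.7% lay downstream, and of the 14168 H4K16Ac peaks 86.6% did. The median position over the peaks of both sides was 171 bp into the gene for H3K9Ac and 162 bp for H4K16Ac. The peaks of each mark come from 3 stacked lists, so a peak can count more than once. Their distances run from the peak centre, whereas members with the TSS inside were a class of their own, so the downstream shares of peaks and members are unlike measures. Where a member and the nearest H3K9Ac peak referred to the same TSS (204 members), the peak lay a median of 142 bp further towards the gene body, and 138 of the peaks (67.6%) were on that side of the member. For H4K16Ac the offset was 39.5 bp over 170 members, with 92 (54.1%) on that side. The sets of members differed between the marks, and the offsets were not compared with a test.

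The CREB and CRTC intervals of a member lay almost on top of each other. The intervals overlapped directly at 998 members (75.3%), were separated by 1 to 100 bp at 268 and by 101 to 200 bp at 59. The centres were a median of 24.0 bp apart (quartiles 12.0 and 52.0 bp), with sites a median of 64 bp wide (range 5 to 180 bp). The members drew on 1280 distinct CREB sites, and at 1320 members the CREB site was assigned to the same gene. Merging members within 500 bp of each other left 1141 loci, of which 970 held 1 member, 158 held 2 and 13 held 3 or more.

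At both limits of the rule, sites of similar CRTC strength lay on either side, with 1 exception. The members with the widest gap to a CREB site were at crp (198 bp, CRTC enrichment factor 3.45) and CG13743 (197 bp, 2.99), and the sites just beyond were at Pino (201 bp, 4.49) and gpp (203 bp, 4.20). The members farthest from a TSS were at CG43154 (500 bp upstream, 5.47), pgant5 (498 bp downstream, 3.24) and CG10365 (498 bp upstream, 5.00). Just outside lay CG5888 (502 bp upstream, 3.53) and Mnt, the repressor partner of Max, whose site 501 bp upstream had a CRTC enrichment factor of 14.6, which among the members was exceeded by tacc, Adk3, Pde8 and CG3788 alone.

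Members with a high CRTC enrichment factor also tended to have a high CREB enrichment factor. The CRTC enrichment factor had a median of 4.62 (quartiles 3.53 and 5.97, range 1.97 to 19.5), and the CREB enrichment factor at the nearest CREB site had a median of 7.35 (quartiles 5.34 and 10.1, range 1.84 to 33.3). CREB exceeded CRTC at 1222 members, with a median ratio of 1.58, and CRTC exceeded CREB at 101. Across the 1325 members Spearman's rho was 0.72 and Pearson's r of the log2 values was 0.74, given as a description because both values share the input library, the caller and often the same enriched region: 315 members had the same CRTC enrichment factor as another member of their locus. The same rho, 0.72, held over the 1065 shared sites away from promoters.

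**Figure D2:**
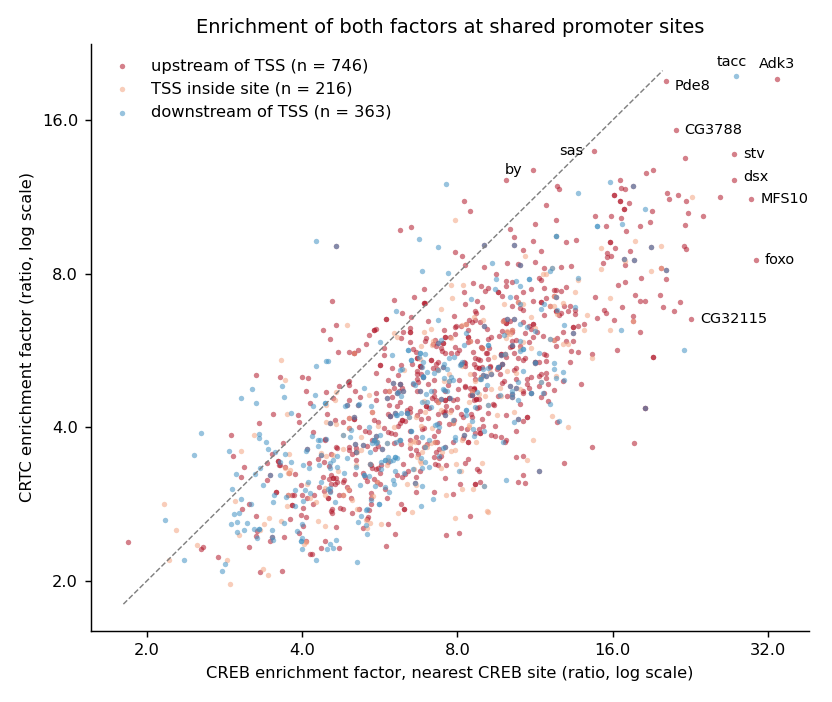
CRTC enrichment factor (y axis) against CREB enrichment factor at the nearest CREB site (x axis) for the 1325 members, both as the authors' ratio of ChIP to background reads on log axes, 1 point for each member coloured by its side of the TSS. Points rise together, most of them below the line of equal values, and tacc, Adk3 and Pde8 stand at the top with CRTC factors between 19.1 and 19.5.

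Sites at promoters were bound less strongly than shared sites elsewhere, and more strongly than sites of 1 factor. The median CRTC enrichment factor was 5.25 (quartiles 4.15 and 6.98) at shared sites away from promoters, 4.62 at the members and 3.54 (quartiles 2.83 and 4.47) at CRTC promoter sites without CREB. The median CREB enrichment factor was 7.94 at shared sites away from promoters, 7.35 at the members and 4.55 (quartiles 3.49 and 6.22) at CREB promoter sites without CRTC, although 1 of the latter reached 78.0. The quartile ranges of the members overlapped those of each of these classes. Within the members, sites upstream of the TSS had higher medians (CRTC 4.88, CREB 7.91) than those downstream (4.27 and 6.49).

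The strongest members were at genes of several kinds. The 51 members (3.85%) with a CRTC enrichment factor of at least 10 were led by tacc, a microtubule-associated centrosomal protein, with 19.5 for CRTC and 27.7 for CREB at a site 471 bp downstream of a TSS. Adk3, an adenylate kinase, had 19.3 for CRTC and 33.3 for CREB, the highest CREB value of any member, 57 bp upstream. Pde8, a phosphodiesterase that degrades cyclic nucleotides, had 19.1 and 20.3, 137 bp upstream. These 3 exceeded the next member, at CG3788, which had 15.3 for CRTC.

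The other members of the highest CRTC rank included cytoskeletal and adhesion genes. The site of sas, a cell surface protein, had a CRTC enrichment factor of 13.9, that of shot, a spectraplakin that links actin and microtubules, 12.8, and that of by, the fly tensin, also 12.8. Stv, a co-chaperone of Hsp70, had 13.7, skd, a subunit of the Mediator kinase module, had 13.5, and msi, an RNA-binding protein, had 12.6. Ranked by CREB instead, foxo, the forkhead factor of insulin signalling, came second to Adk3 with 30.3 beside a CRTC factor of only 8.50. Next came MFS10, a transporter of the major facilitator family (29.7), and, after tacc and stv, dsx, the sex determination factor (27.5), elB, a zinc finger protein (25.8), and pum, a translational repressor required for long-term memory (23.9). A CREB enrichment factor of at least 10 was reached by 342 members (25.8%).

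Many genes held more than 1 member. Of the 1014 genes, 776 had 1 member, 179 had 2, 47 had 3 and 12 had 4 or more, and 109 genes had members in at least 2 separate loci, which can be different start sites of the gene. A further shared site away from promoters was assigned to 277 member genes (27.3%). The gene bun, a transcriptional regulator of the TSC22 family, had the most: 6 members in 4 loci that spanned 84881 bp of chromosome 2L (12461248 to 12546129), with CRTC enrichment factors from 3.09 to 6.98 and 5 more shared sites away from promoters. CHES-1-like, a forkhead factor, fs(1)h, a bromodomain protein, and ps, an RNA-binding splicing regulator, had 4 members in 4 loci each.

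Genes of the CREB pathway itself were among them. The gene of CREB, CrebB-17A on chromosome X, had 3 members, 192 and 135 bp upstream and 112 bp downstream of its start sites. Their CRTC enrichment factors were 6.27, 6.53 and 6.53, and those of CREB were 6.48, 10.3 and 10.3. Pka-R2, a regulatory subunit of protein kinase A, had 3 members in 1 locus, all with a CRTC factor of 9.50. Its 3 members thus carried a single value of the authors' factor. The gene dnc, the cAMP phosphodiesterase known from memory mutants, had 2 members in separate loci, with CRTC factors of 7.36 and 11.5.

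Members were spread over the chromosome arms, with 229 on 2L, 288 on 2R, 274 on 3L, 329 on 3R, 202 on X and 3 on chromosome 4. The X chromosome held 15.2% of the members, against 17.8% of the shared sites away from promoters, 13.6% of the CRTC promoter sites without CREB and 13.4% of the CREB promoter sites without CRTC.

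The acetylation libraries were not used to choose the members, and most members had a peak of at least 1 mark nearby. A member was counted as having a peak when the 400 bp window around a peak centre came within 200 bp of it. An H3K9Ac peak was near 741 members (55.9%, 95% Wilson interval 53.2 to 58.6%) and an H4K16Ac peak was near 642 (48.5%, 45.8 to 51.1%). Both marks were present at 537 members (40.5%), H3K9Ac alone at 204 (15.4%), H4K16Ac alone at 105 (7.92%) and neither at 479 (36.2%). These intervals cover counting error over sites of 1 list, not differences between flies or libraries. The peak table of a mark is a stack of 3 genome-wide lists that name no library, and a peak in all 3 lists was near 440 members for H3K9Ac and 270 for H4K16Ac. With direct overlap of the window required, the shares were 34.1% for H3K9Ac and 31.0% for H4K16Ac. Counted by gene, 509 member genes (50.2%) had an H3K9Ac peak near their TSS, below the 60.6% of all genes named in the files.

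Members differed from shared sites elsewhere in H3K9Ac more than in H4K16Ac. Away from promoters an H3K9Ac peak was near 31.0% of shared sites (28.3 to 33.8%), below the 55.9% of the members, and an H4K16Ac peak was near 42.8% (39.9 to 45.8%), closer to the 48.5% of the members. Promoter sites of CREB without CRTC had H3K9Ac peaks at 57.3% and H4K16Ac peaks at 51.7%, with intervals that overlapped those of the members. Promoter sites of CRTC without CREB had 61.0% and 59.7%. For H4K16Ac this interval (54.2 to 65.1%) lay above that of the members.

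**Figure D3:**
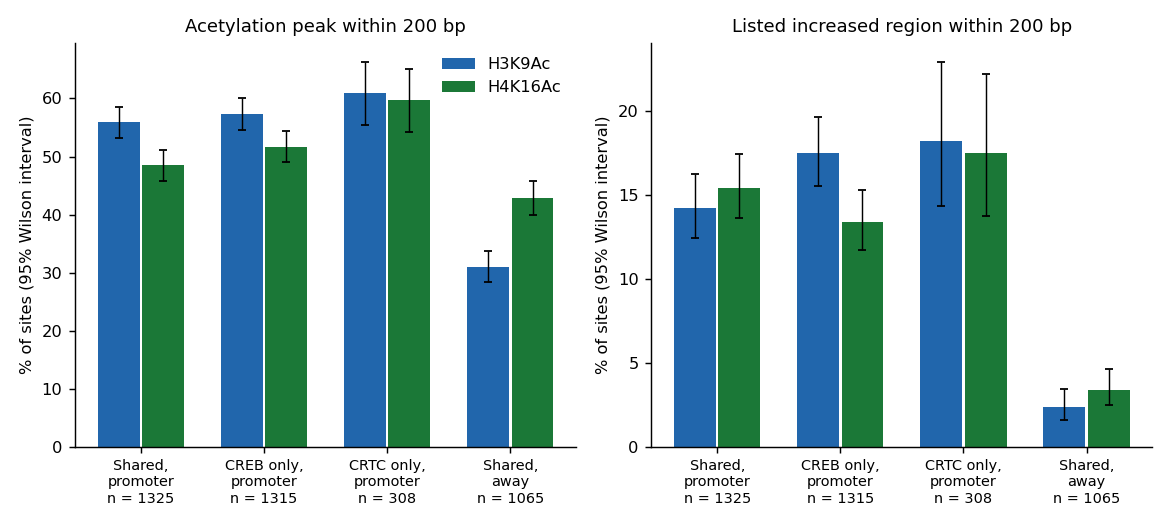
Percent of sites (y axis) in each class with an H3K9Ac or H4K16Ac peak within 200 bp, and percent beside a region listed as increased, with 95% Wilson intervals as bars. H3K9Ac peaks were near 55.9% of the members and 31.0% of shared sites away from promoters. By their own distance column all listed regions lay within 500 bp of a TSS, so the shares listed at sites away from promoters are not comparable with the others.

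The share of members with a peak nearby differed with the side of the TSS on which they lay. Over all peaks within 500 bp of a TSS, 85.7% for H3K9Ac and 86.6% for H4K16Ac lay downstream, so the distance to a peak depends on the side. Shares by side were not computed for the other classes of promoter sites. Whether the difference between sides goes beyond this distance was not tested. An H3K9Ac peak was near 44.4% of upstream members (40.8 to 48.0%), 64.4% of those with the TSS inside and 74.7% of downstream members (69.9 to 78.9%). For H4K16Ac the shares were 39.1%, 47.7% and 68.0%. Members with stronger CRTC enrichment had H3K9Ac peaks less often: with the members split into 4 classes of nearly equal size by CRTC factor, from lowest to highest, the shares were 64.5%, 61.9%, 53.8% and 43.5% (38.3 to 48.9% in the highest class), while for H4K16Ac they were 51.8%, 48.3%, 50.5% and 43.2%. The position of the sites moved with CRTC strength as well. Within upstream members the H3K9Ac share was 51.3% (79 of 154) in the lowest class and 35.8% (81 of 226) in the highest, and within downstream members it was 77.9% (88 of 113) and 63.6% (35 of 55), so the share was lower in the strongest class on both sides of the TSS, with intervals that lay apart upstream (43.5 to 59.1% and 29.9 to 42.3%) and overlapped downstream (69.4 to 84.5% and 50.4 to 75.1%).

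Examples of strong binding without a nearby peak of either mark were Pde8, sas and dsx. The strongest CREB site, at Adk3, had peaks of both marks. On the X chromosome 51.0% of members had an H3K9Ac peak and 53.5% an H4K16Ac peak, against 56.8% and 47.6% on the other chromosomes, with overlapping intervals for each mark.

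The authors' lists of regions whose acetylation was higher 1 day after spaced training than in naive flies held regions beside 337 of the members (25.4%). This counts members with either mark listed, for which no background share was computed. These lists give a linear fold of at least 1.2 and an unadjusted p below 0.05, whereas the study's methods describe an adjusted p for changed windows. Their folds and SDs are the authors' deposited values, which were not retested. Of all non-overlapping H3K9Ac windows, 24.2% were listed as increased, and 30.6% of those within 500 bp of a TSS by the distance of the nearest peak. Beside this background, 188 members (14.2%, 12.4 to 16.2%) lay within 200 bp of a listed H3K9Ac region, which is 25.4% of the 741 members with an H3K9Ac peak. Of all H4K16Ac windows, 15.3% were listed, and 20.8% of those near a TSS by the same distance. Of the members, 204 (15.4%, 13.6 to 17.4%) lay by a listed H4K16Ac region, which is 31.8% (28.3 to 35.5%) of the 642 with an H4K16Ac peak. Both marks were listed as increased at 55 members in 48 genes, H3K9Ac alone at 133, H4K16Ac alone at 149 and neither at 988 (74.6%). The share with both listed was 4.15% of the members, near the 3.95% of CREB promoter sites without CRTC and the 4.87% of CRTC promoter sites without CREB.

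Counted by window, with listed regions given the TSS distance of the nearest peak, the marks differed in how they stood to the background. By that distance 1613 of the 1889 listed H3K9Ac regions and 1190 of the 1428 listed H4K16Ac regions were near a TSS. By their own distance column all of them were. Listed regions are therefore missing from the counts below, and the contrast was not recounted with them. Of the H3K9Ac windows near a TSS, 129 of 492 (26.2%, 22.5 to 30.3%) with a member were listed as increased, against 1484 of 4778 (31.1%, 29.8 to 32.4%) without one. Of the H4K16Ac windows near a TSS, 121 of 416 (29.1%, 24.9 to 33.6%) with a member were listed, against 1069 of 5305 (20.2%, 19.1 to 21.3%) without one. The intervals overlapped for H3K9Ac and lay apart for H4K16Ac. Neighbouring windows are not independent, the difference was known from earlier results over all shared sites, and it is given here without a test.

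Members had listed H3K9Ac less often than CREB promoter sites without CRTC, and listed H4K16Ac more often, with intervals that overlapped for each mark. Among CREB promoter sites without CRTC, 17.5% (15.5 to 19.6%) were beside a listed H3K9Ac region and 13.4% (11.7 to 15.3%) beside a listed H4K16Ac region, and both intervals overlapped those of the members. Among sites with a peak of the mark, H3K9Ac was listed at 30.5% and H4K16Ac at 25.9% (22.7 to 29.3%) of CREB promoter sites without CRTC, and the H4K16Ac interval overlapped the 28.3 to 35.5% of the members. CRTC promoter sites without CREB had listed H3K9Ac at 18.2% (14.3 to 22.9%) and listed H4K16Ac at 17.5% (13.7 to 22.2%). Of those with a peak of the mark, the shares were 29.8% and 29.3%, so the H4K16Ac share was not particular to the members. Downstream members were beside a listed H4K16Ac region more often (22.6%, 18.6 to 27.2%) than upstream members (13%, 10.8 to 15.6%), but among members with an H4K16Ac peak both shares were 33.2%.

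The folds listed beside members were small and close to those of the whole lists. Over 172 distinct H3K9Ac regions the median fold was 1.29 (quartiles 1.24 and 1.36, range 1.2 to 1.85), against 1.30 over all 1889 listed regions. Over 187 distinct H4K16Ac regions it was 1.32 (quartiles 1.25 and 1.40, range 1.2 to 2.09), against 1.31 over all 1428. A fold of at least 1.5 was listed for 7.56% of the H3K9Ac regions beside members (10.7% of the whole list) and for 9.63% of the H4K16Ac regions (9.38%).

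The largest listed H3K9Ac folds beside members were 1.85 ± 0.30 (listed SD), in a region beside the CG44009 member that the list assigns to Vha100-2, a subunit of the vacuolar proton pump, and those at CG42238, with 1.79 ± 0.29, and ena, an actin regulator, with 1.71 ± 0.17. CG3164 had 1.66 ± 0.18 for H3K9Ac together with 1.39 ± 0.06 for H4K16Ac. The binding at these members was modest, with CRTC enrichment factors of 4.97 at CG44009, 3.53 at CG42238, 3.86 at ena and 3.61 at CG3164. For H4K16Ac the largest fold was at Sox102F, a Sox transcription factor on chromosome 4, with 2.09 ± 0.39 beside a CRTC factor of 2.67. Mgstl, a microsomal glutathione S-transferase, had 1.79 ± 0.18, Eip71CD, an ecdysone-induced methionine sulfoxide reductase, had 1.68 ± 0.49 and 1.69 ± 0.25 at its 2 members, and cu, the fly homologue of the deadenylase nocturnin, had 1.66 ± 0.33.

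Members at which both marks were listed as increased had weaker CRTC binding by the median, 3.85, against 4.22 with H3K9Ac alone, 4.70 with H4K16Ac alone and 4.70 with neither. The strongest of them was chic, the actin-binding protein profilin, with a CRTC enrichment factor of 12.2 and folds of 1.42 ± 0.11 for H3K9Ac and 1.41 ± 0.28 for H4K16Ac. Chc, the heavy chain of clathrin, had a CRTC factor of 8.27 with 1.27 ± 0.11 and 1.38 ± 0.08. Next came Hers, with 8.01 and folds of 1.28 ± 0.03 and 1.26 ± 0.09. Rab5, the GTPase of early endosomes, had 7.10 with 1.27 ± 0.10 and 1.24 ± 0.07. GstD1, a glutathione S-transferase, had 1.23 ± 0.04 and 1.38 ± 0.11. At bun 2 of the members shared a region with 1.23 ± 0.13 for H3K9Ac and a region with 1.45 ± 0.12 for H4K16Ac. Chc and Rab5 both act in endocytosis, but they were picked from 48 genes with both marks listed, and no share of endocytosis genes was counted.

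**Figure D4:**
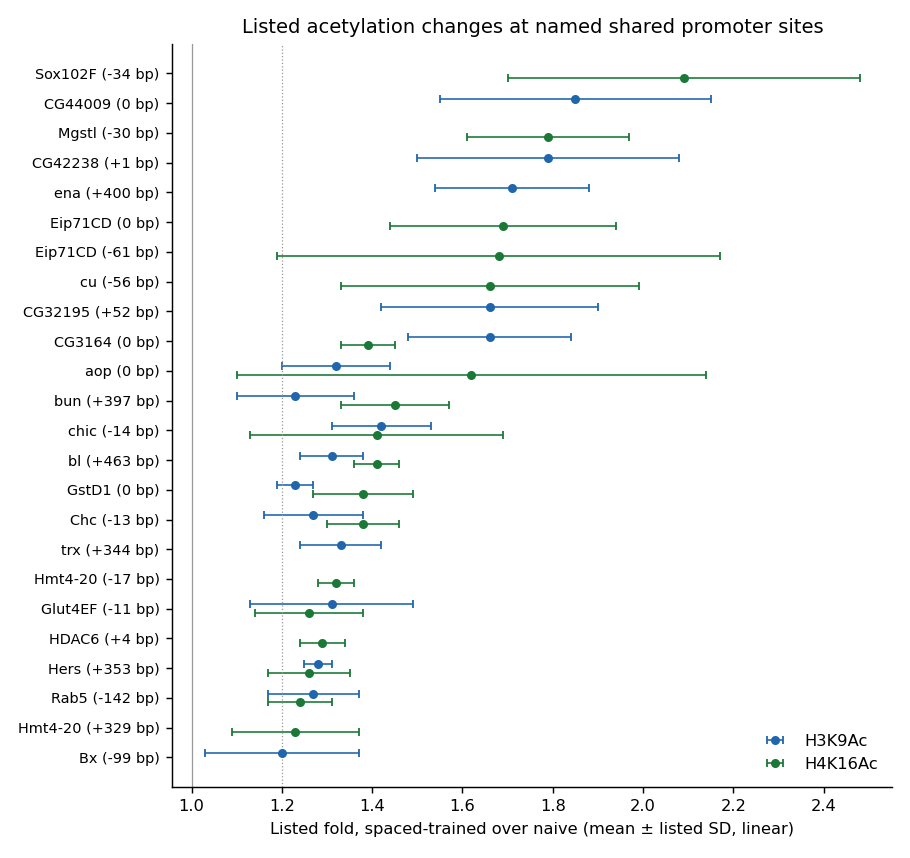
The authors' listed fold (x axis, spaced-trained over naive, linear, point with listed SD) for named members beside an increased region, 1 line for each member with its position relative to the TSS, from the largest folds at the top. Solid and dotted vertical lines mark no change and the lists' lower limit of 1.2, and the points run from 2.09 at Sox102F to 1.2 at Bx.

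Of the 10 genes that the study selected as candidates, 8 had members, which is no independent evidence since the choice was made on these data. At aop, an ETS repressor of the Ras pathway, 1 of 2 members lay at a TSS with 1.32 ± 0.12 for H3K9Ac and 1.62 ± 0.52 for H4K16Ac, and the other had no peak of either mark. The trx member, at the gene of a trithorax methyltransferase, lay 344 bp downstream of the TSS beside H3K9Ac of 1.33 ± 0.09. HDAC6, a cytoplasmic deacetylase, had H4K16Ac of 1.29 ± 0.05, and Hmt4-20, the H4 lysine 20 methyltransferase, had 1.32 ± 0.04 and 1.23 ± 0.14 at its 2 members. CG42388 had 3 members, with CRTC factors of 6.69, 10.7 and 10.7, and no listed increase at any of them. Mob2, a partner of NDR kinases, had 1 member without a peak of either mark. Smr, a nuclear corepressor, and beta-Spec, a spectrin, had no member, but had 3 and 2 shared sites away from promoters.

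Genes were then grouped by function, in lists chosen with earlier results in view, against a background in which 13.1% of the 7766 genes named in any of the files (1014) had a member. Activity-regulated transcription factors and Arc genes stood highest, at 14 of 24 (58.3%, 38.8 to 75.5%), among them kay, the fly Fos, sr, the fly homologue of Egr, Arc1, Arc2, foxo, cnc, Hr46 and bun. Energy and lipid metabolism had 16 of 36 (44.4%), with Adk3, Pgk, Indy and the glycolytic genes Ald, Eno, Gapdh2 and Hex-A. Mushroom body development and memory genes had 16 of 37 (43.2%), with dnc, pum, Fmr1, Fas2 and Dscam. This list holds 4 of the study's candidates, and without them it had 13 of 33 (39.4%). Over all member genes, 168 (16.6%) had listed H3K9Ac at a member and 177 (17.5%) had listed H4K16Ac. The counts were 6 and 2 of the 14 activity-regulated genes, 4 and 4 of the 16 metabolic genes and 2 and 3 of the 16 memory genes.

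Signalling genes followed. Growth signalling through Ras/MAPK, Wnt and Notch had 19 of 52 (36.5%), or 17 of 50 (34%) without the candidates aop and Mob2, including pnt, the ETS activator of this pathway, and tkv, a BMP receptor with a CRTC factor of 8.98. The cAMP, PKA and CREB pathway had 9 of 25 (36%, 20.2 to 55.5%): Akap200, CrebA, CrebB-17A, Pde8, Pka-R2, Pp2B-14D, crc, dnc and nej, the gene of CBP. The circadian clock had 7 of 21 (33.3%), with Clk, per, cry and Pdp1, the activator of Clk, whose 4 members had CRTC factors between 3.86 and 9.10. The median CRTC factor of the members was 6.53 for the cAMP pathway, or 6.4 with each repeated value of a locus counted once, 5.35 for the clock and 4.54 for growth signalling, against 4.62 over all members. Listed H3K9Ac and H4K16Ac were found at members of 4 and 5 of the 19 growth signalling genes, 0 and 2 of the 9 cAMP pathway genes and 2 and 2 of the 7 clock genes.

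**Figure D5:**
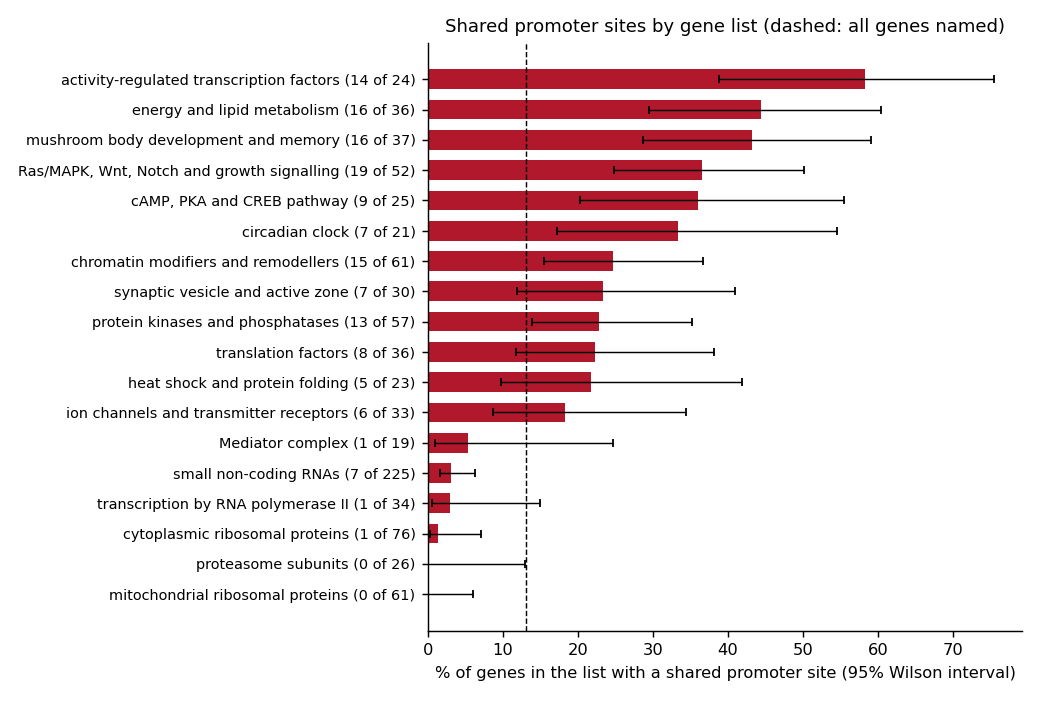
Percent of the genes of each list with a member (x axis) and 95% Wilson intervals, beside 13.1% of all genes named in the files (line). Activity-regulated transcription factors had 58.3%, cytoplasmic ribosomal proteins 1.32% and mitochondrial ribosomal proteins and proteasome subunits 0%.

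Other groups had shares between 18.2% and 24.6%. Chromatin modifiers had members at 15 of 61 genes (24.6%, 15.5 to 36.7%), or 12 of 57 (21.1%, 12.5 to 33.3%) without 4 candidates of the study, including trx, HDAC6, Hmt4-20, nej, Sin3A and the Polycomb genes Pc, Psc, ph-d and ph-p. Synaptic vesicle and active zone genes had 7 of 30 (23.3%, 11.8 to 40.9%), with n-syb, cpx, Syn, synj and lap, and ion channels and transmitter receptors had 6 of 33 (18.2%, 8.61 to 34.4%), none of them with a listed increase at the member. Protein kinases and phosphatases had 13 of 57 (22.8%, 13.8 to 35.2%), translation factors 8 of 36 (22.2%) and heat shock genes 5 of 23 (21.7%). The intervals of the synaptic, ion channel, translation and heat shock lists spanned the background, as did that of the chromatin modifiers without the candidates.

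Few genes of ribosomal proteins, the proteasome and small non-coding RNAs had a member. An H3K9Ac peak lay near the TSS of 60.6% of all genes named in the files, and 14.5% of all genes had a CREB promoter site without CRTC. Genes can be named through an acetylation peak alone, which raises the 60.6%. Of 76 genes of cytoplasmic ribosomal proteins, 1 (RpS19a) had a member, while 73 (96.1%) had an H3K9Ac peak near their TSS and 19 had a CREB promoter site without CRTC. None of 61 mitochondrial ribosomal protein genes had a member (upper limit of the Wilson interval 5.92%), and 42 (68.9%) had an H3K9Ac peak. None of 26 proteasome genes had 1 (upper limit 12.9%), and all 26 had an H3K9Ac peak. Small non-coding RNAs had 7 of 225 (3.11%, 1.52 to 6.28%), including mir-14 and mir-1000, and 82 of them (36.4%) had an H3K9Ac peak. Mediator had 1 of 19 genes, skd (interval 0.935 to 24.6%), and subunits and factors of RNA polymerase II transcription had 1 of 34, bin3 (0.521 to 14.9%), and both intervals spanned the background. H3K9Ac peaks lay near 12 of the Mediator genes (63.2%) and 22 of the polymerase genes (64.7%). The lists hold different numbers of genes, and their shares are a description.

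Marker genes bear on the cells of the sample. Of 11 mushroom body markers, 7 had an H3K9Ac peak and 7 an H4K16Ac peak, and dac, Fas2, dnc and trio had members. Of 6 markers of all neurons, nSyb was missed by the count because the lists spell it n-syb. Among the rest, 4 had an H3K9Ac peak and 2 an H4K16Ac peak, and elav had a member. The n-syb gene also had a member, 471 bp downstream of its TSS, with a peak of each mark within 200 bp. None of 4 muscle and 4 fat body markers had a peak of either mark, whereas 2 of 6 glial markers did for each mark, and of the 4 photoreceptor markers ninaE and norpA had H4K16Ac peaks and norpA also had an H3K9Ac peak. The glial marker moody held a member. Signal from cells outside the mushroom body in the CREB and CRTC lists was not tested.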

How the data were processed

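The methods of the study state that the authors mapped reads to dm3, called peaks against input DNA with PICS and computed enrichment factors with ERD. The deposited CREB and CRTC lists give positions, the false discovery rate of each call, comparable to an adjusted p-value (at most 5% by the methods, and up to 0.0095 at members), the distance to the TSS, the nearest gene and the authors' enrichment factor, a ratio of ChIP to background reads. The methods describe replicates for CREB and CRTC, while the labels give 1 library each. The authors deposited a PICS score for each acetylation peak, and for increased regions a fold, its SD and an unadjusted p-value, headed as a t-test, whose computation is not stated. The methods instead describe a count model with an adjusted p-value for changed windows. These comparison columns are printed as the authors' values and were not retested, as the tables hold no counts per library. Acetylation peaks were set to 400 bp windows, and overlapping windows were removed with increased regions kept first.

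Sites were intersected in Python 3.11.15 with pandas 2.3.3, numpy 2.4.6 and scipy 1.17.1, and figures were drawn with matplotlib 3.10.9. Interval functions were tested on simulated data. Shares have 95% Wilson intervals that cover counting error only. Groups came from the labels. Named genes were those with the 10 highest CRTC or CREB factors, the 5 highest folds of each mark, both marks increased, 3 or more members, the limits of the rule, the study's candidates and up to 4 strongest members of each gene list. Further members of a list were named to describe it. The members, gene lists and alternatives were chosen with earlier results of these data known. Shares of gene lists without the study's candidates, and the median with repeated values counted once, were added after seeing the data.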

Additional observations from a re-analysis of the deposited data

How the results depend on the processing

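Of 48 alternative values for 6 results, 35 moved by less than the counting interval or within the limits set for counts and 13 moved by more. The limits for counts were wide. Against 1325 members, 998 with direct overlap of the CREB site and 1000 with a TSS within 250 bp were among the 35. So was the count of 1674 with a TSS within 1000 bp. With a CRTC factor of at least 4 the number of members fell to 843, their median CRTC factor was 5.56, the share with an H3K9Ac peak was 51.2% and the share by increased H3K9Ac was 12.0%. The median CRTC factor was 4.80 with direct overlap of the CREB site, 4.53 with a TSS within 250 bp and 4.49 on autosomes. Requiring direct overlap with the acetylation window gave 34.1% with an H3K9Ac peak, 31.0% with an H4K16Ac peak, 7.32% by increased H3K9Ac and 7.17% by increased H4K16Ac. A listed p below 0.01 gave 7.62% for H3K9Ac and 4.83% for H4K16Ac. The share of promoters with a short CREB motif and its alternatives were not run, since no promoter sequence was used here. No paired analysis was possible because the deposited tables give no values per library, and for the same reason no replicate could be left out. Depth is unknown, so an absent peak is not evidence of absent binding or acetylation.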
